A study of Mus musculus with 6 samples.

Results

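Signal that an anti-ATF3 antibody pulled down from macrophages lacking ATF3 was compared between cells given HDL followed by CpG and cells given HDL alone. The regions examined were the 2385 peaks of the HDL + CpG list that overlapped a peak of the HDL list by at least 1 bp, out of 3790 HDL + CpG peaks (62.9%). They met 2378 of the 5319 HDL peaks (44.7%) as best partners, and 2360 of them formed pairs in which neither peak met a second one. Both lists were called by the authors on wild-type libraries alone, so that the knockout tags had no part in choosing the regions. Each condition and genotype was represented by 1 pooled library. Therefore no spread between mice and no test across samples could be computed. Intervals on the ratio of a single peak are exact 95% intervals that cover only counting error of reads taken as independent. They compare libraries, not conditions. Intervals on a median are 95% order-statistic intervals over peaks, which are not replicates.

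ATF3 ChIP-seq had been performed on bone marrow derived macrophages of Atf3 -/- mice (KO) and of WT C57BL/6 mice, aged 6 to 8 weeks. HDL + CpG cells had received 2 mg/ml HDL for 6 h and then 100 nM CpG for 4 h, whereas HDL cells had received 2 mg/ml HDL for 6 h, and unstimulated cells only medium. The study pooled 3 biological replicates per library, and the antibody was the rabbit polyclonal C-19X. The lists hold no expression values, so the cell type could not be checked against marker genes. The KO library held 47504605 reads with HDL + CpG and 66061648 with HDL, and values are given as tags, which the authors scaled to 10000000 per library. One tag thus stood for more reads in the HDL library than in the HDL + CpG library, and 1936 of the 2385 peaks had at least 20 KO reads in each library.

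ATF3 belongs to the bZIP family of transcription factors. It is induced by stress, recognises AP-1 and CRE sequences and in macrophages represses inflammatory genes. HDL is the lipoprotein that carries cholesterol away from cells, and CpG DNA is a ligand of Toll-like receptor 9. In a knockout, the antibody has no ATF3 to bind, and the reads that remain at a peak come from chromatin, from other proteins or from sequences present in many more copies in the genome than in the assembly. Satellite DNA at centromeres, ribosomal DNA and the telomere repeat TTAGGG are textbook examples of such multi-copy sequences.

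The sequences of several peaks show the kinds of DNA under which the KO tags lay, as read from the NCBIM37 reference, the assembly of mm9, on its plus strand. In the first group the capitals mark part of a perfect tandem tract, meaning a unit of 2 to 6 bases repeated without error over at least 20 bp. These peaks were chosen because their KO tags were among the highest or their KO ratios among the largest.
Nefm, chr14:68910814-68910903: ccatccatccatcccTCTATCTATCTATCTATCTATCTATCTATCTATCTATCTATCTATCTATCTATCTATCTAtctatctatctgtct
Eif2s3y, chrY:327961-328050: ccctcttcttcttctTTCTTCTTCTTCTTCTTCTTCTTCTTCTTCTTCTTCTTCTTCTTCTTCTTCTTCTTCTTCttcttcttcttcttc
Car10, chr11:92624191-92624280: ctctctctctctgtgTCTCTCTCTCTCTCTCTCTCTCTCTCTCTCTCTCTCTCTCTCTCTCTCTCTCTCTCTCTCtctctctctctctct

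A second group shows peaks that differ from these, namely a satellite, an rRNA-derived repeat and 2 sites with an AP-1 sequence, which is in capitals. They are given because their KO tags differed little between conditions or were lower with HDL + CpG.
Chl1, chr6:103599105-103599164: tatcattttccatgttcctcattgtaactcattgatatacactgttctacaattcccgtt
Cdk8, chr5:147072607-147072666: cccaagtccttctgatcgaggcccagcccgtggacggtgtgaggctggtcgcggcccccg
Cd36, chr5:17385915-17385971: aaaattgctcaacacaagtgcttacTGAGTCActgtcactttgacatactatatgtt
Ddit3, chr10:126727582-126727638: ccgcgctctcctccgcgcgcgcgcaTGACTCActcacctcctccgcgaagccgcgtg

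Over all 2385 shared peaks, KO tags per kb had a median of 11.3 with HDL + CpG and 8.06 with HDL. The ratio of HDL + CpG to HDL, in KO tags per bp of peak width, had a median of 1.22 (1.18 to 1.26), with quartiles of 0.88 and 1.87. A peak was called higher or lower where this ratio was at least 1.5-fold and its counting interval excluded 1. By this rule 804 peaks (33.7%) were higher in the KO library with HDL + CpG and 173 (7.25%) were lower, while 1408 were not called. The shared peaks together held 6.84% of the KO library with HDL + CpG and 6.85% with HDL, most of it in 22 satellite peaks. The higher calls were unevenly spread over repeat classes. Of the 804 higher peaks, 441 had a simple repeat at their centre and 216 (26.9%) had no repeat named there. Of the 173 lower peaks, 5 had a simple repeat and 128 (74.0%) had no repeat named. Among all 2385 shared peaks, 665 (27.9%) had a simple repeat and 1076 had no repeat named.

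In WT cells the median moved the other way. WT tags per bp had a median HDL + CpG to HDL ratio of 0.84 (0.83 to 0.85), with 38 peaks higher (1.59%) and 430 lower (18%) by the same rule. Since the WT libraries chose the peaks, these values are a description. KO and WT levels were therefore closer with HDL + CpG than with HDL. The WT/KO ratio of tags had a median of 1.16 with HDL + CpG and 2.26 with HDL, and KO tags equalled or exceeded WT tags at 796 peaks with HDL + CpG and at 265 with HDL.

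**Figure D1:**
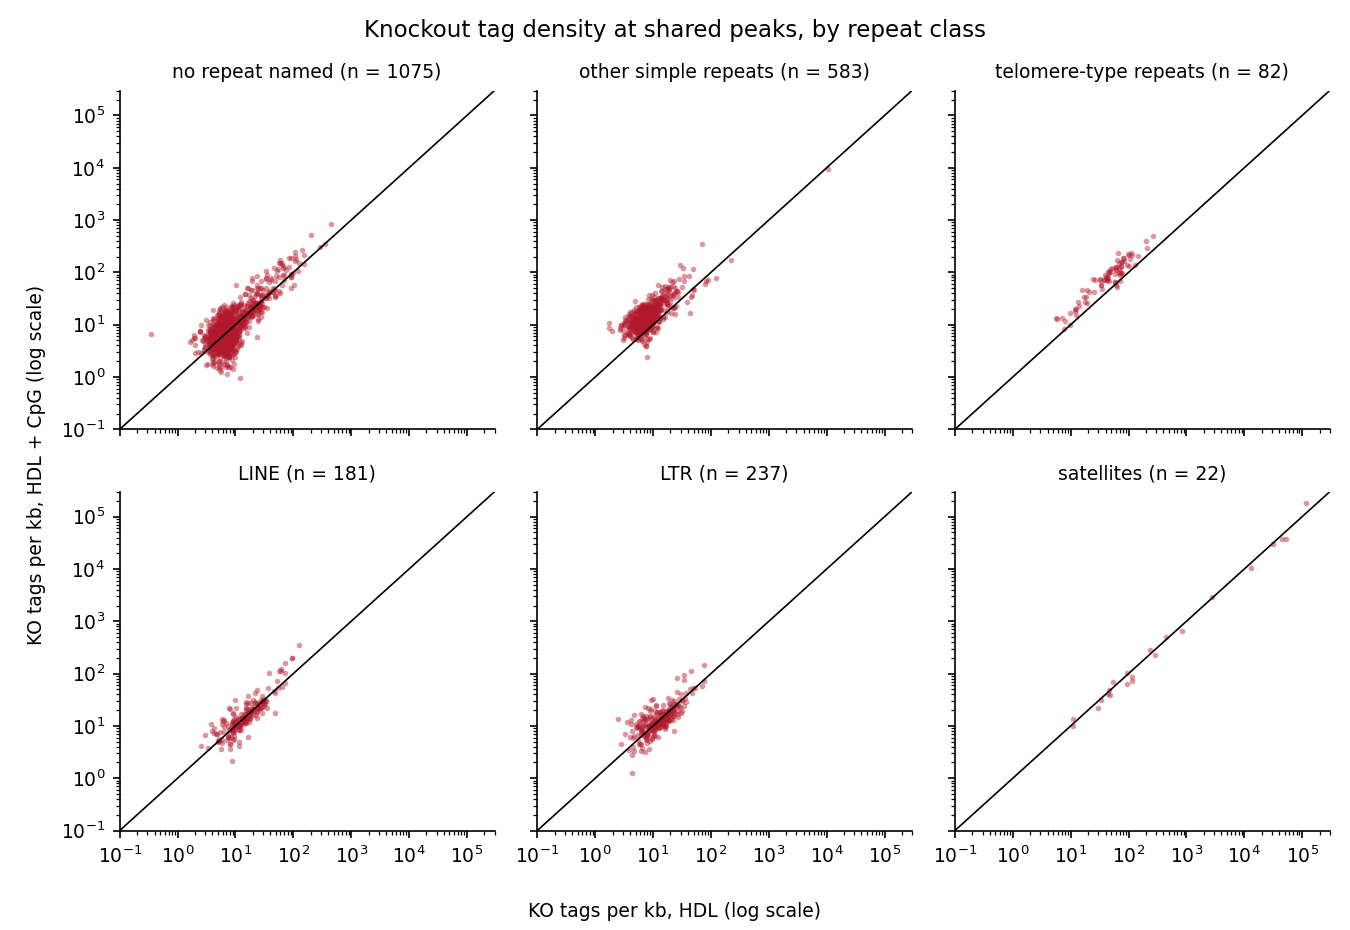
KO tags per kb of peak width with HDL + CpG (vertical axis) and with HDL (horizontal axis), both on log scales, for 6 repeat classes, with 1 point per shared peak and the line of equal density. Simple and telomere-type repeats lie mostly above the line (medians of 1.87 and 1.84), while LINE, LTR and satellite peaks lie along it. One peak with no repeat named and 0 KO reads with HDL + CpG is not drawn.

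Simple repeats, short units copied in tandem, made up 665 of the shared peaks by the authors' annotation of the peak centre. Of these, 82 were telomere-type, having TTAGGG or its complement as unit, and the other 583 had other units. The 583 peaks had a median of 13.5 KO tags per kb with HDL + CpG and 7.33 with HDL, and a median ratio of 1.87 (1.81 to 1.94). In KO cells 381 of them were higher and 5 lower (background 33.7% and 7.25%). The telomere-type peaks carried several times more signal, with medians of 80.6 KO tags per kb with HDL + CpG and 47.4 with HDL. Their median ratio was 1.84 (1.70 to 1.97), 60 of 82 were higher and none was lower. Counted per peak instead of per bp, 75 of the 82 were higher, and 81 had more KO tags with HDL + CpG.

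The common repeat units had similar medians. The 305 peaks on AG units (GA or TC in other phases) had a median KO ratio of 1.90 (1.81 to 1.99), and the 129 peaks on AC units had one of 1.92 (1.74 to 1.99). The 53 peaks on ACAG units had a median ratio of 1.85 (1.66 to 2.33). Their intervals overlapped with each other and with that of the telomere unit. Less common units gave higher or lower medians from few peaks. Both AGAT (2.38, 1.67 to 2.73) and ACT (2.14, 1.67 to 3.15) had 13 peaks, of which 12 were higher. In contrast, the 8 peaks on ACAGC units had a median ratio of 0.87 (0.75 to 1.15) and no call in either direction.

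**Figure D2:**
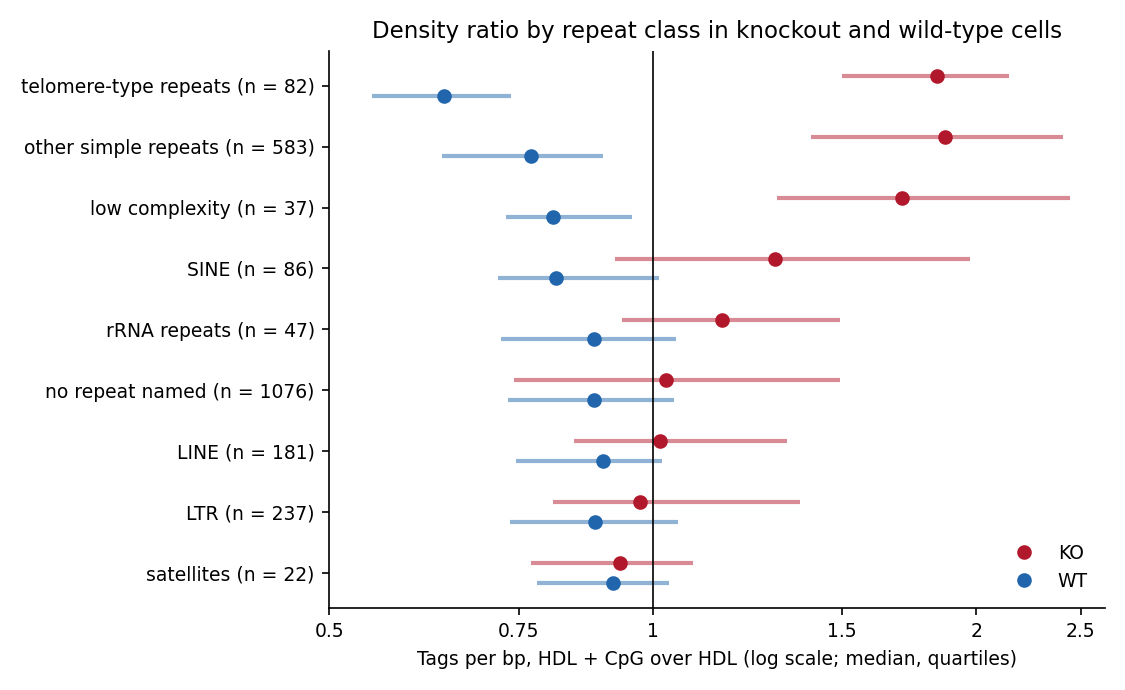
Median ratio of tags per bp, HDL + CpG over HDL, on a log scale for each repeat class, in KO (red) and WT (blue) libraries, with bars from the lower to the upper quartile over peaks. KO and WT medians lie on opposite sides of 1 for telomere-type repeats (1.84 in KO, 0.64 in WT) and other simple repeats (1.87 in KO, 0.77 in WT), whereas both lie at or below 1 for satellites (0.93 in KO, 0.92 in WT).

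In the WT libraries simple repeats moved the other way. The median WT ratio was 0.77 (0.75 to 0.79) at other simple repeats and 0.64 (0.60 to 0.70) at telomere-type repeats, of which 43 were lower and none higher in WT. The KO ratio was above 1 and the WT ratio below 1 at 1156 of all 2385 shared peaks (48.5%). In 77 of the 82 telomere-type peaks the KO ratio was above 1 and the WT ratio below 1, and the same held for 449 of the 583 other simple repeats and for 392 of the 1076 peaks with no repeat named. As a result the WT/KO ratio of telomere-type peaks had a median of 1.01 with HDL + CpG and 2.97 with HDL. KO tags reached or exceeded WT tags at 35 of these 82 peaks with HDL + CpG and at 0 with HDL.

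The named telomere-type peaks showed the same order of libraries. The peak 368.6 kb upstream of Galnt5, which encodes a GalNAc transferase of mucin-type glycosylation, had 498.1 KO tags with HDL + CpG and 223.3 with HDL, and a KO ratio of 1.97 (1.84 to 2.10). In WT cells it had 470.6 tags with HDL + CpG and 773.0 with HDL. The KO library thus held more tags than the WT library with HDL + CpG and fewer with HDL. A peak 46.9 kb upstream of 4930529K09Rik had 352.6 and 192.9 KO tags with HDL + CpG and HDL, a ratio of 1.41 (1.31 to 1.51) that missed the 1.5-fold rule, and 377.6 and 562.1 WT tags. A peak 116.7 kb downstream of the start site of Isl1, a LIM homeobox factor of motor neuron and heart development, had 228.0 KO tags with HDL + CpG and 131.4 with HDL (2.08, 1.90 to 2.27). WT tags in that peak were 230.9 with HDL + CpG and 365.1 with HDL. KO and WT values lay close together with HDL + CpG in all 3 peaks, with the KO value above the WT value at Galnt5 and below it at the other two, and apart with HDL.

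Some of the strongest peaks had no repeat named at their centre and still held the telomere unit. The peak at chrX:166526634-166527655, 110.3 kb upstream of G530011O06Rik, had the highest KO density with HDL + CpG of all shared peaks with no repeat named. It held 860.3 KO tags with HDL + CpG and 451.4 with HDL. Its width was equal in both lists, and its KO ratio was 1.91 (1.82 to 2.00). In WT cells it had 873.7 tags with HDL + CpG and 1360 with HDL. The reference holds a perfect telomere-unit tract of 270 bp in this peak. The peak 18.8 kb upstream of Chst2, a sulfotransferase of carbohydrate chains, holds a tract of 60 bp of the same unit. It had 495.5 KO tags with HDL + CpG and 206.5 with HDL (2.57, 2.40 to 2.75), and 471.4 and 784.9 WT tags. The peak 9.47 kb upstream of Nkx2-6, a homeobox gene, holds a tract of 84 bp of this unit and had 284.6 KO tags with HDL + CpG and 145.2 with HDL (2.31, 2.12 to 2.51). Among peaks with no repeat named, the 30 with 3 TTAGGG units in a row in the 200 bp around their centre had a median KO ratio of 1.88 (1.65 to 2.11), of which 22 were higher and none lower.

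**Figure D3:**
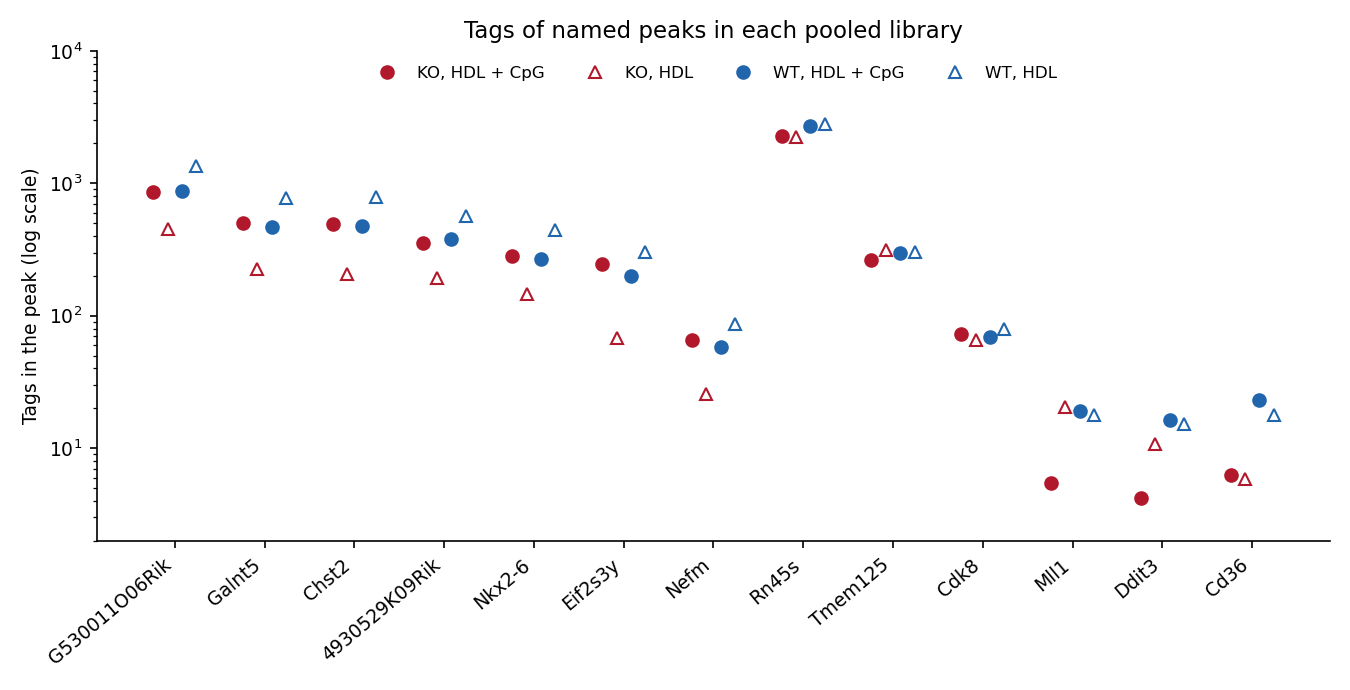
Tags per peak on a log scale for 13 named peaks in the 4 pooled libraries, KO in red and WT in blue, with filled circles for HDL + CpG and open triangles for HDL. In the 7 peaks on tandem repeats at the left the KO value with HDL is the lowest of the 4 and the WT value with HDL the highest, whereas Rn45s, Tmem125 and Cdk8 differ little, and Mll1 and Ddit3 have the lowest value in KO cells with HDL + CpG.

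The peak centre is 1 base, and the tandem tract could lie elsewhere in the peak. A perfect tract of at least 20 bp was present in 1170 of the 2385 shared peaks (49.1%), in 26.9% of the 1405 peaks found in the HDL + CpG list only and in 40.1% of the 2934 found in the HDL list only. The 1170 peaks had a median KO ratio of 1.70 (1.65 to 1.75), with 641 higher and 33 lower. The 1215 peaks without a tract had a median of 0.98 (0.96 to 1.01), with 163 higher and 140 lower. Peaks with no repeat named divided in the same manner. The 337 with a tract had a median KO ratio of 1.35 (1.251 to 1.458) and the 739 without one had 0.96 (0.92 to 0.99). LINE and LTR peaks had medians of 1.44 (1.12 to 1.74) with a tract (n = 116) and 0.96 (0.92 to 1.01) without (n = 302). Most simple-repeat peaks are among those with a tract (537 of 583 and all 82 of the telomere-type), and the search for tracts was added after the values had been seen.

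**Figure D4:**
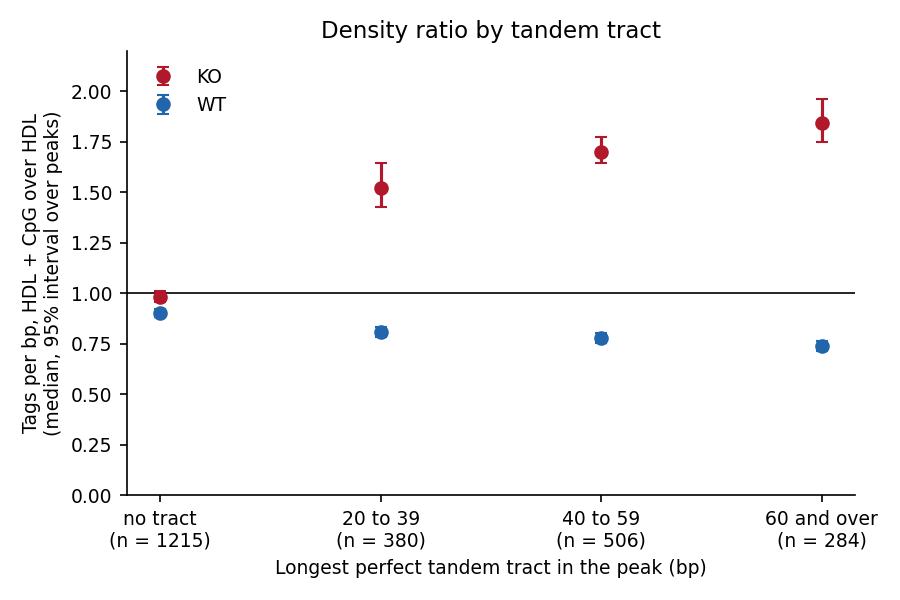
Median ratio of tags per bp, HDL + CpG over HDL, with its 95% interval over peaks, for peaks grouped by their longest perfect tandem tract in bp, in KO (red) and WT (blue) libraries. KO medians are 0.98, 1.52, 1.70 and 1.84 from no tract to 60 bp and over, while the WT medians are 0.90, 0.81, 0.78 and 0.74.

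The median ratio was higher in groups with longer tracts. Peaks whose longest tract was 20 to 39 bp had a median KO ratio of 1.52 (1.42 to 1.65, n = 380), those with 40 to 59 bp had 1.70 (1.65 to 1.77, n = 506) and those with 60 bp and over had 1.84 (1.75 to 1.96, n = 284). GC content was compared as well. Among the 739 peaks with no repeat named and no tract, those below 40% GC had a median KO ratio of 1.07 (0.96 to 1.17). Those at 55% GC and over had 0.87 (0.79 to 0.97). Over all 2385 peaks, Spearman's rho between the KO ratio and tract length was 0.46, but it was 0.31 in the 1076 peaks with no repeat named and 0.05 within the 665 simple repeats. Between the KO ratio and GC share rho was 0.02 over all peaks, -0.14 with no repeat named and -0.05 within simple repeats. All these peaks come from the same libraries.

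The shared peaks contained the AP-1 sequence TGACTCA or TGAGTCA in the 200 bp around their centre in 14.6% of cases, against 16.6% of all HDL + CpG peaks and 16.4% of all HDL peaks. The CRE sequence TGACGTCA was present in 12 shared peaks. TGACTCA and TGAGTCA are reverse complements and TGACGTCA is its own, so both strands were covered. AP-1 sequences lay mainly in peaks with no repeat named (294 of 1076) and seldom in telomere-type (2 of 82) or other simple repeats (7 of 583). The 294 peaks had a median of 5.32 KO tags per kb with HDL + CpG and 6.28 with HDL, and a median KO ratio of 0.90 (0.84 to 0.95), with 23 higher and 58 lower. The 782 peaks with no repeat named and no AP-1 sequence had a median of 1.09 (1.05 to 1.14), with 193 higher and 70 lower. Perfect tandem tracts lay in 337 of the 1076 peaks with no repeat named. The groups with and without an AP-1 sequence were not matched for tracts.

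Satellite DNA held most of the KO reads in the shared peaks and differed little between conditions. The 22 satellite peaks took 6.19% of the KO library with HDL + CpG and 6.33% with HDL. The satellite peak at chr2:98506039-98508032, 1199 kb from its nearest start site, that of Lrrc4c, had 356977 KO tags with HDL + CpG and 370004 with HDL, and 346544 and 359992 WT tags. The authors' peak was 1994 bp wide with HDL + CpG and 3129 bp with HDL, so that its density ratio was 1.51 although its tag ratio was 0.96. An intronic peak 269.9 kb upstream of the start site of Fam172a and outside that gene, simple repeat by its centre with HDL + CpG and satellite with HDL, had 8183 and 8242 KO tags. The neighbouring satellite peak on chromosome 2 had 149993 KO tags with HDL + CpG and 147476 with HDL. The peak in the intron of Chl1, a neural adhesion gene, had 12431 and 12891 KO tags, a tag ratio of 0.96. Over the 22 peaks the median ratio was 0.93 (0.77 to 1.10) per bp and 1.04 per peak, 1 peak was higher and 1 lower, and KO tags equalled or exceeded WT tags at 15 with HDL + CpG and at 14 with HDL.

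Ribosomal sequences were close to even at the largest peak and slightly higher as a class. The peak over Rn45s, the 45S precursor of ribosomal RNA, had 2270 KO tags with HDL + CpG and 2252 with HDL, and 2700 and 2781 WT tags. The rRNA-derived repeat in an intron of Cdk8, a kinase of the Mediator complex, had 72.4 KO tags with HDL + CpG and 65.4 with HDL, and 69.5 and 79.4 WT tags. Its peak was narrower with HDL + CpG (854 bp) than with HDL (1204 bp), and its density ratio of 1.56 (1.351 to 1.803) passed the rule while its tag ratio was 1.11. The peak in an intron of Filip1l had 83.8 and 91.7 KO tags with HDL + CpG and HDL, and its wider HDL + CpG interval gave a density ratio of 0.56. All 47 rRNA repeat peaks had a median KO ratio of 1.16 (1.04 to 1.32) per bp and 1.18 (1.12 to 1.26) per peak, with 12 higher and 2 lower per bp, and 39 had more KO tags with HDL + CpG.

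Among transposon-derived repeats, LINE and LTR peaks had medians near 1 per bp and SINE peaks a higher one. LINE peaks (n = 181) had a median KO ratio of 1.02 (0.95 to 1.09) and LTR peaks (n = 237) one of 0.97 (0.95 to 1.06), with 30 and 44 higher, each a smaller share than the 33.7% of all shared peaks. Per peak the medians were 1.12 (1.05 to 1.22) for LINE and 1.07 (1.02 to 1.13) for LTR. SINE peaks (n = 86) had a median of 1.30 (1.12 to 1.56), with 33 higher and 2 lower. The 51 SINE peaks with a perfect tract had 1.53 (1.18 to 1.77), and the 35 without one had 1.12 (0.91 to 1.38). Low-complexity DNA (n = 37) had 1.71 (1.45 to 2.14), with 22 higher and 1 lower. The largest low-complexity peak went the other way. It lies upstream of Tmem125 and had 262.1 KO tags with HDL + CpG and 310.9 with HDL, a ratio of 0.89 (0.83 to 0.96), and 299.4 and 301.1 WT tags.

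Medians differed less by the position of a peak relative to genes than by the repeat at its centre. Intergenic peaks (n = 1460) and intronic peaks (n = 802) both had a median KO ratio of 1.23, with intervals of 1.18 to 1.29 and 1.17 to 1.29. In peaks with no repeat named, the medians were 1.05 (0.99 to 1.11) for intergenic and 1.01 (0.96 to 1.07) for intronic peaks. On simple repeats they were 1.84 (1.76 to 1.92) and 1.93 (1.82 to 2.01). The 80 promoter peaks had 7.17 KO tags per kb with HDL + CpG and 6.89 with HDL, and a median ratio of 1.02 (0.86 to 1.21). Of these, 15 were higher (18.75%) and 11 lower (13.75%). These shares were close to the 20.1% and 11.9% of all shared peaks with no repeat named, which include the promoters. The annotation names a repeat only in intergenic and intronic peaks, so repeats at promoters are not recorded. The remaining classes were small, with 13 peaks at transcription end sites (1.00, 0.79 to 2.08), 12 in 3′ UTRs (1.44, 0.97 to 1.81), 11 in exons (0.81, 0.44 to 1.39), 4 in non-coding RNA genes and 3 in 5′ UTRs.

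On chromosome X the 137 shared peaks had a median KO ratio of 1.03 (0.98 to 1.07), and on autosomes the interval of the median of 2225 peaks was 1.21 to 1.29. Chromosome X held few simple repeats among its peaks (20 of 137), and these had a median of 1.72 (1.27 to 2.11). Across the 19 autosomes the median ranged from 1.09 to 1.48.

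The 10 highest density ratios, among peaks with at least 20 KO reads in each library, ranged from 4.21 to 5.77, and 9 of the 10 had a simple or low-complexity repeat at their centre. All 10 intervals were narrower in the HDL + CpG list, and their tag ratios ranged from 1.87 to 3.89. The peak whose nearest start site, 586.2 kb away, is that of Itga1 had 12.6 KO tags with HDL + CpG and 5.15 with HDL, a tag ratio of 2.45 and a density ratio of 5.77 (3.73 to 9.06) from widths of 446 and 1048 bp. Depth was far greater at Eif2s3y, the Y-linked gene for a translation initiation factor subunit. Its peak had 244.8 KO tags with HDL + CpG and 67.8 with HDL, a density ratio of 5.01 (4.49 to 5.60), and 200.5 and 303.5 WT tags. The peak 167.8 kb from the start site of Nefm, which encodes a neurofilament subunit, had 65.7 and 25.7 KO tags (4.84, 4.01 to 5.87). The peak 336.4 kb from the start site of Car10, a carbonic anhydrase-related gene, had nearly equal widths and the largest tag ratio of the 10, with 17.7 KO tags with HDL + CpG and 4.54 with HDL. The peak in an intron of Rasgrf2, a Ras exchange factor gene, had 42.7 and 11.5 KO tags (5.43, 4.15 to 7.16).

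The 10 lowest ratios, ranging from 0.24 to 0.44, included 2 promoters. Mll1, which encodes a histone H3K4 methyltransferase, had 5.47 KO tags at its promoter with HDL + CpG and 20.6 with HDL, a ratio of 0.24 (0.15 to 0.37), and 19.0 and 17.9 WT tags. KO tags there exceeded WT tags with HDL only. At Ddit3, the gene for the stress-induced bZIP protein CHOP, the promoter had 4.21 and 10.8 KO tags with HDL + CpG and HDL (0.36, 0.21 to 0.59) and 16.4 and 15.3 WT tags, and it holds the AP-1 sequence printed above. A peak 106.3 kb upstream of Fmo9, a flavin monooxygenase gene, had 4.21 and 9.69 KO tags (0.36, 0.21 to 0.61), and one in an intron of 3830403N18Rik had 6.32 and 14.8 (0.44, 0.28 to 0.66). In some other peaks the tag ratio was above 1, and the low density ratio came from width. The peak 310.6 kb from the start site of 1700129C05Rik was 984 bp wide with HDL + CpG and 285 bp with HDL and had 17.1 and 13.9 KO tags, a tag ratio of 1.22. The one in an intron of Pald1 had a tag ratio of 1.14.

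The peaks at Cd36, Atf3 and Ifnb1 had more WT than KO tags in both conditions. The peak in an intron of Cd36, the scavenger receptor for oxidised lipoproteins, had 6.32 KO tags with HDL + CpG and 5.90 with HDL, a ratio of 0.92 (0.55 to 1.52), and 23.1 and 17.9 WT tags. The Atf3 promoter had 7.79 and 12.1 KO tags with HDL + CpG and HDL (0.70, 0.46 to 1.04) and 15.4 and 21.9 WT tags. Whether these reads lie in the part of Atf3 that was deleted was not examined, so they do not check the deletion. The peak 14.8 kb upstream of Ifnb1, the interferon beta gene, had 2.95 and 5.30 KO tags (0.50, 0.25 to 0.95), and 16.4 and 21.1 WT tags. Per bp only the interval of Ifnb1 excluded 1. Per peak the Ifnb1 interval (0.28 to 1.06) included 1 and that of the Atf3 promoter (0.42 to 0.96) did not.

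Peaks were also grouped by their nearest gene, and the interval of the median KO ratio included 1 for every list. The 22 shared peaks near 13 of 46 bZIP factor genes had a median KO ratio of 0.81 (0.55 to 1.09). Of these, 2 were higher and 6 lower, against 33.7% and 7.25% of all shared peaks. No repeat was named at 18 of the 22. All 1076 shared peaks with no repeat named had a median of 1.03, with 20.1% higher and 11.9% lower. Besides Ddit3, the bZIP peaks included a telomere-type peak 69.5 kb from Creb3l1, with 65.9 KO tags with HDL + CpG and 42.5 with HDL. Macrophage identity genes had 17 peaks with a median of 0.91 (0.58 to 1.19), of which 1 was higher and 5 lower. One of these lies near Lyz1, the lysozyme gene, with 4.84 and 9.69 KO tags (0.58, 0.34 to 0.95). Lipid and cholesterol genes had 11 peaks with a median of 0.95 (0.47 to 1.72), of which 2 were higher and 3 lower. A peak 10.7 kb upstream of Lrp1, a lipoprotein receptor gene, had 5.89 and 10.3 KO tags (0.60, 0.37 to 0.95). Another in an intron of Lrp1 had 4.84 and 6.96 (1.06, 0.61 to 1.79) and was not called. An intronic TG repeat at Acsl1, an acyl-CoA synthetase gene, had 11.4 and 5.75 (1.72, 1.12 to 2.68).

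Cytokine and chemokine genes had 10 shared peaks near 8 genes with a median KO ratio of 0.96, of which 1 was higher and 1 lower. The promoter of the chemokine gene Ccl2 had 9.26 and 6.36 KO tags with HDL + CpG and HDL (1.21, 0.77 to 1.88). That of Ccl3 had 4.00 and 8.33 (0.69, 0.39 to 1.18), and neither interval excluded 1. The higher peak of this list lay 12.8 kb upstream of Ccl2, with 7.79 and 6.66 KO tags (1.61, 1.01 to 2.55). It was 645 bp wide with HDL + CpG and 889 bp with HDL, and its tag ratio was 1.17 (0.73 to 1.85). Peaks near Toll-like receptor and NF-kB signalling genes (n = 10) had a median of 1.21, with 1 higher and 1 lower. The higher one, 174.0 kb from the start site of the kinase gene Map3k7, had 14.3 KO tags with HDL + CpG and 6.21 with HDL (2.90, 1.94 to 4.39). The lists for oxidative stress (n = 8), endoplasmic reticulum stress (n = 8) and cell cycle and p53 (n = 6) had medians of 1.18, 0.92 and 0.91. Neuronal adhesion, receptor and synapse genes had 38, of which 12 lay on simple repeats, with a median of 1.18, and 13 higher (34.2%) and 3 lower (7.89%) were close to the 33.7% and 7.25% of all shared peaks. Olfactory and vomeronasal receptor genes had 74, with a median of 1.00 and 14 higher and 2 lower. The nearest gene can lie far away, as with the 368.6 kb at Galnt5.

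The KO library of unstimulated cells could be read at the 1535 shared peaks that also overlapped an unstimulated peak. At 541 simple repeats of this kind, the median was 11.6 KO tags per kb in unstimulated cells, 8.51 with HDL and 16.4 with HDL + CpG. HDL was the lowest of the 3 KO libraries at 429 of them (79.3%). The same held at 862 of all 1535 peaks (56.2%) and at 228 of the 533 with no repeat named (42.8%). Telomere-type peaks (n = 80) had medians of 69.6, 49.1 and 85.5 KO tags per kb in unstimulated, HDL and HDL + CpG cells. In the same 80 peaks WT cells had 118.7, 147.7 and 83.9, so that WT was highest where KO was lowest. The KO library with HDL therefore lay below the unstimulated one (0.72, 0.67 to 0.77) and the KO library with HDL + CpG above it (1.28, 1.19 to 1.38). At peaks with no repeat named (n = 533) the corresponding ratios were 0.95 (0.90 to 0.99) and 1.08 (1.05 to 1.15), and at LTR peaks (n = 165) 0.96 (0.91 to 1.05) and 1.06 (1.01 to 1.10).

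**Figure D5:**
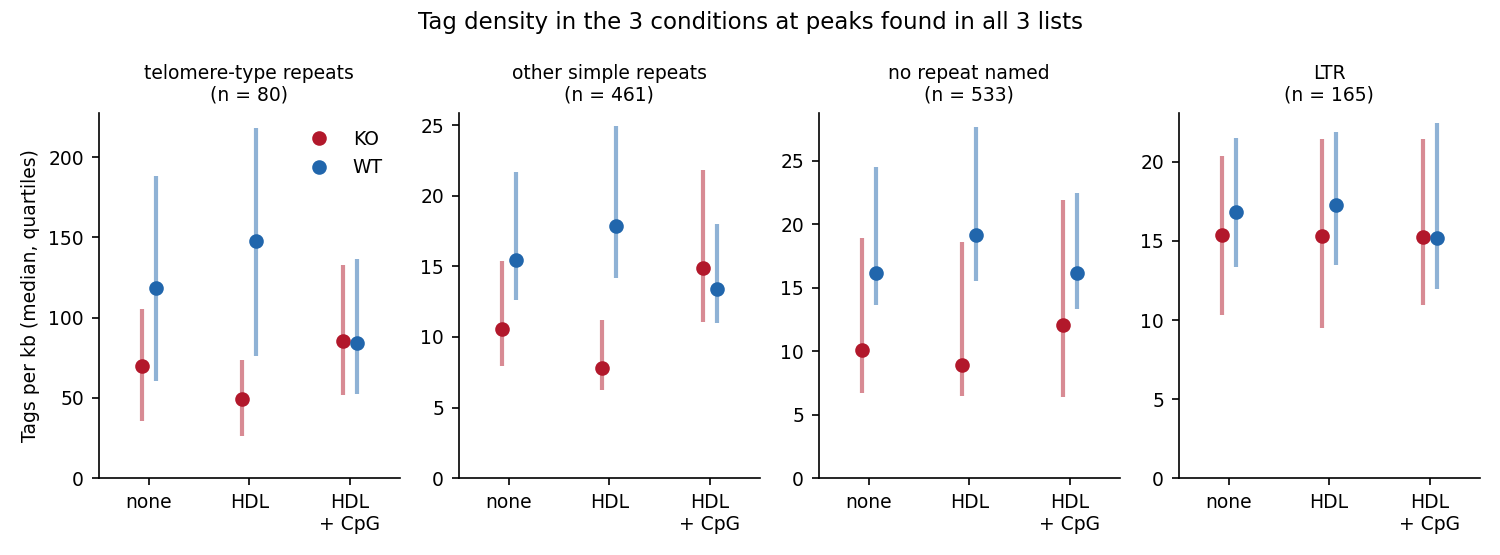
Tags per kb of peak width in unstimulated, HDL and HDL + CpG cells, in KO (red) and WT (blue) libraries, at shared peaks that also overlapped an unstimulated peak, with points at the median and bars over the quartiles. At telomere-type and other simple repeats the KO median is lowest and the WT median highest with HDL, and the vertical axes differ between panels.

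Peaks found in 1 list only carried less KO signal than the shared ones. The 1405 peaks of the HDL + CpG list alone had a median of 6.12 KO tags per kb and the 2934 of the HDL list alone had 5.56, against 11.3 and 8.06 in the shared peaks. Simple repeats made up 10.1% of the HDL + CpG peaks that were not shared and 27.9% of those that were. In the HDL list they made up 19.6% of the peaks found there only and 25.4% of the shared ones.

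The authors' corrected lists, called against the KO libraries, keep a peak only if its WT/KO ratio is at least 2, so that membership in them depends on the KO tags. Of the 2385 shared peaks, 389 were kept in both corrected lists, 808 only with HDL, 142 only with HDL + CpG and 1046 in neither. Simple repeats accounted for 407 of the 808 and for 2 of the 389. Of the 82 telomere-type peaks, 70 were kept with HDL only and 12 in neither list.

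The width of the authors' intervals entered the density ratio. In the 597 peaks whose HDL + CpG interval was narrowest relative to the HDL interval, the median KO ratio was 1.61 per bp and 1.15 per peak, and in the 596 where it was widest it was 1.02 per bp and 1.501 per peak. Per peak, 828 peaks were higher and 170 lower, of which 656 and 109 were also called per bp. The 3 KO libraries differ in depth and were each pooled from 3 biological replicates before deposit. Whether the differences at tandem repeats arose from the treatment or from these libraries cannot be told apart.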

How the data were processed

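ATF3 ChIP-seq peak lists of WT and Atf3 -/- macrophages were analysed. Alignment to mm9 used Bowtie 0.12.8, peak calling MACS 1.4.2 and annotation HOMER 4.3, after CASAVA 1.8, per the submitters' processing notes. The deposited signal is the number of tags per peak, which the authors scaled to 10000000 per library. The deposited score of a peak is that of MACS. All values lay within 0.005 tags of whole reads, which were recovered from library totals in the headers. The authors' own fold columns and the barcode list were not used.

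Samples were grouped by label. Each HDL + CpG peak was paired with the HDL peak it overlapped most, by at least 1 bp, and KO tags were divided by each interval's width. Repeat class is that at the HDL + CpG peak's centre, which the authors' annotation gives only for intergenic and intronic peaks. No p-value is reported, and an exact binomial test of reads with Benjamini-Hochberg adjustment was used only as an alternative call rule. A call needed a ratio of at least 1.5 with a Clopper-Pearson 95% interval excluding 1. The rule was also run on simulated reads that varied by counting error only, which cannot show how it performs under variation between libraries. Intervals cover counting error only and take reads as independent molecules. Reads are not all independent, so the intervals may be too narrow. Of 71 promoter peaks whose gene is in GENCODE, 67 had a start site within 100 bp of the listed distance, and all 9109 peaks of both lists lay inside the reference chromosomes. Alternatives covered overlap, pairing, score, width, scaling, pseudocount, chromosomes, repeats and the call rule.

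Named peaks are the 10 of highest KO density off satellites and the 5 densest satellites, the 10 highest and 10 lowest ratios, the strongest per class, listed genes, and up to 4 per gene list. The members and the 10 gene lists were chosen with earlier results of these data known. Some reference sequences are not reported here.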

Additional observations from a re-analysis of the deposited data

Results flagged for a closer look

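In 5 repeat classes the median density ratio of HDL + CpG to HDL was above 1 in KO cells and below 1 in WT cells, with neither interval including 1. These were telomere-type repeats (1.84 in KO, 0.64 in WT, 82 peaks), other simple repeats (1.87 in KO, 0.77 in WT, 583 peaks), low-complexity DNA (1.71 in KO, 0.81 in WT, 37 peaks), SINEs (1.30 in KO, 0.81 in WT, 86 peaks) and rRNA repeats (1.16 in KO, 0.88 in WT, 47 peaks). Both ratios came from 1 pooled library per genotype and condition, and the difference between genotypes was not tested. In the 35 SINE peaks without a perfect tract the interval of the median KO ratio, 0.91 to 1.38, included 1. Peak by peak, a KO ratio above 1 with a WT ratio below 1 was found at 93.9% of telomere-type repeats, 77.0% of other simple repeats, 70.3% of low-complexity peaks, 47.7% of SINEs and 44.7% of rRNA repeats, against 48.5% of all shared peaks, so that SINEs and rRNA repeats did not exceed the overall share.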

How the results depend on the processing

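Of 156 recomputed values, 124 stayed within the interval of a median or within 1.5 times a count, 31 moved further and 1 reversed. The reversed one was the median KO ratio over all shared peaks, which was 0.98 in peaks without a perfect tandem tract, an alternative added after seeing the data. That median was 1.05 without satellites or simple repeats, 1.33 and 1.51 at a MACS score of at least 60 and 100 in both lists, and 1.31 with at least 20 KO reads in each library. The 2385 shared peaks were 1190 and 548 at these scores. Against 804 of 2385 by the main rule, higher peaks numbered 489 of 1190 and 280 of 548 at these scores. They numbered 486 of 1492 with similar widths in both lists, 362 of 1698 without satellites or simple repeats and 163 of 1215 without a tract. Of all 2385 peaks, 531 were higher with ratios divided by their median and 487 at 2-fold. Against 173 of 2385 by the main rule, lower peaks numbered 71 of 1190 and 20 of 548 at these scores and 104 of 1492 with similar widths. Of all 2385 peaks, 109 were lower with a pseudocount of 1 tag and 361 after division by the median. Without the interval condition 268 were lower, and at 2-fold 103. The split of higher to lower calls thus depended on scaling, at 531 to 361 against 804 to 173. By class, medians at a score of 60 were 1.31 for intergenic, 1.42 for intronic peaks and 1.06 with no repeat named. Without a score limit, autosomal intergenic peaks had 1.29. Per peak they were 1.12 for LINE and 1.07 for LTR. With a pseudocount, other simple repeats had 1.73. In alternatives added after seeing the data, LTR had 0.95 relative to peaks with no repeat named, peaks with the same class in both lists had 0.99 (no repeat named) and 2.05 (telomere-type), and telomere-type repeats as annotated in the HDL list had 2.07. The cause of these shifts was not tested, beyond the fewer peaks that stricter settings leave. No paired analysis was possible because each group has 1 pooled library, and no replicate could be left out for the same reason.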
